A study of Homo sapiens with 40 samples.

Results

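NF-κB is a family of transcription factors that carries inflammatory and stress signals from the cell surface to the nucleus. The chromatin of 10 genes of this pathway was examined in EndoC-βH3 cells, a human pancreatic beta-like cell line. The genes were the 5 family members NFKB1, NFKB2, REL, RELA and RELB and the 5 regulators NFKBIA, NFKBIE, NFKBIZ, TNFAIP3 and BCL3. They belong to the 19702 protein-coding genes of GENCODE 44 that have a start site of a protein-coding transcript. Regions were assigned to a gene if they lay within 2 kb of one of its start sites or overlapped its body. They were also assigned to it if the nearest start site of any protein-coding gene was its own and no more than 100 kb away. By this rule the genes had 27 of 51489 H3K27ac peaks, 28 of 51457 CTCF peaks, 5 of 14886 enhancers listed for non-senescent cells and 7 of 13076 listed for senescent cells.

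The libraries came from chromatin immunoprecipitation followed by sequencing (ChIP-seq). H3K27ac, an acetylation mark found at promoters and enhancers in use, and CTCF, a zinc-finger protein that anchors chromatin loops, were each profiled in 3 non-senescent and 3 senescent libraries. H3K4me1, an enhancer mark, and the retinoblastoma protein Rb were each profiled in 2 and 2 libraries. All cells are labelled WT and carry a CreER recombinase together with excisable hTERT and SV40 large T-antigen transgenes. In the senescent group CreER had been activated with 4-hydroxytamoxifen for 3 weeks, and the non-senescent group is labelled as control. Senescence, loss of the transgenes and exposure to tamoxifen therefore cannot be told apart, and the data describe 1 cell line. The level of a peak is given as the authors' mean over all 6 libraries of the mark, in normalized read counts, so it carries no standard deviation and does not separate the states. The state enters only through the 2 enhancer lists, of which there is 1 per state, and through the list of Rb regions called in senescent over non-senescent libraries. There are no replicate lists. All 11 beta-cell marker genes examined, INS and PDX1 among them, had an H3K27ac peak at the promoter, where 66.3% of all protein-coding genes had one. Their levels per kb ran from the 4.23rd (MAFA) to the 97.2nd (PDX1) percentile of promoters with a peak, with a median at the 64.9th. Such a peak was present at 0 of 3 fibroblast, 0 of 2 endothelial and 1 of 3 immune markers, the last being CD68, in a peak of 14892 bp. Peaks were also present at 3 of 4 alpha-cell, 2 of 2 delta-cell, 1 of 4 acinar and 1 of 2 duct markers.

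In resting cells, NF-κB dimers are held in the cytoplasm by inhibitors of the IκB family. When a receptor such as those for tumor necrosis factor or interleukin signals, a kinase complex marks the inhibitor for destruction, and the freed dimer enters the nucleus and binds κB sites in its target genes. Several targets encode the pathway's own inhibitors, which closes a negative feedback loop. In beta cells the pathway is known as a mediator of cytokine responses.

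The promoter sequences of the genes were searched for the NF-κB consensus, a pattern of 10 bases, on both strands of hg38, with overlapping matches counted as 1 site. Within 1 kb of the canonical start site, 10 of 10 genes held at least 2 matches, 27 in all. At least 1 match was present in 53.7% and at least 2 in 22.9% of the 20046 such windows. These cover every gene annotated as protein-coding with a canonical start site, a wider set than the 19702 genes used elsewhere. NFKB2 and NFKBIA held 4 matches each, RELA, NFKBIE and TNFAIP3 held 3 each, and the remaining 5 genes held 2 each. For 9 of the genes the match closest to the canonical start site is shown, with the matched bases in capitals and with its distance from that start, since these sequences are where the family could bind its own genes and those of its inhibitors.

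NFKB1, −44 bp, chr4:102501270-102501329, plus strand: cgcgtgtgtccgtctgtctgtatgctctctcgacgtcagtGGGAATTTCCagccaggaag
NFKB2, −16 bp, chr10:102395674-102395703, plus strand: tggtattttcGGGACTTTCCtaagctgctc
REL, −42 bp, chr2:60881517-60881546, plus strand: cgtcagccgcGGGAAATTCCCctcccgcca
RELA, 152 bp, chr11:65662749-65662778, plus strand, opposite to the gene: aaagcggcgcGGGGGCTCCCgccacagccg
RELB, −54 bp, chr19:45001395-45001424, plus strand: cggcggcgccGGGGAATTCCgccgccccgc
NFKBIA, −77 bp, chr14:35404781-35404870, minus strand: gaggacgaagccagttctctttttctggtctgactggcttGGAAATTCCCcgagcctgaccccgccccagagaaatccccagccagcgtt
NFKBIZ, −234 bp, chr3:101849265-101849294, plus strand: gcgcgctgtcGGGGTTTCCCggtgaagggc
TNFAIP3, −50 bp, chr6:137867164-137867213, plus strand: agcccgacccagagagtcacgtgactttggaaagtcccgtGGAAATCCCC
BCL3, 7 bp, chr19:44748700-44748729, plus strand: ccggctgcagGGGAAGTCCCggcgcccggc

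In 6 of the 10 genes the closest match lay no more than 77 bp upstream of the start site. The TNFAIP3 promoter held a second match at −62 bp, which is visible in lower case in the sequence above. NFKBIZ has a further start site 21.5 kb upstream of its canonical one, and a match was found at −223 to −214 bp from that site, counted from the start that RefSeq lists (chr3:101827757-101827786, plus strand).

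NFKBIZ, upstream start site: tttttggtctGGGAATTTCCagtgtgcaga

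In the narrower RefSeq promoter windows, from 250 bases before to 50 after the start site that RefSeq lists, 6 of the 8 members present in the table held a match, against 12.3% of 15345 promoters. NFKB2 and RELA, whose RefSeq starts lie upstream of the canonical ones, held none there. RELB and NFKBIE were not in the table. GC content of the 8 windows ranged from 51.3% in RELA to 80.0% in BCL3, at the 19.6th and 96.4th percentile of all promoters, and its part in the share with a match was not tested. A match is a description of the sequence, and binding of NF-κB was not measured.

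**Figure D1:**
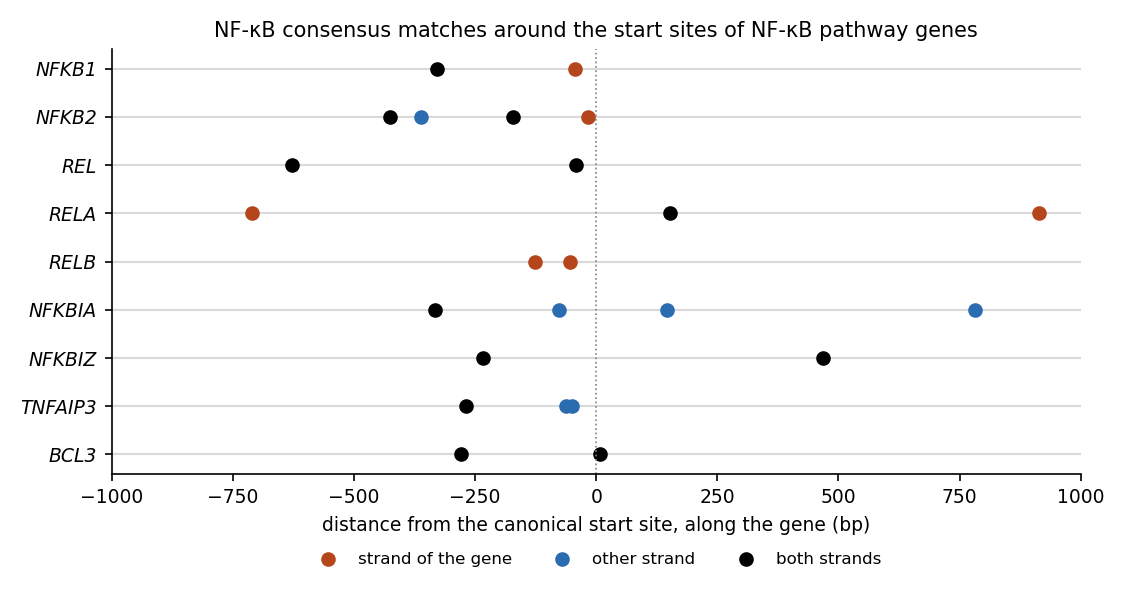
Positions of NF-κB consensus matches within 1 kb of the canonical start site of 9 of the genes (y axis), with distance in bp along the gene on the x axis. Colours give the strand, and each gene shown holds between 2 and 4 matches.

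All 10 genes had an H3K27ac peak at a promoter, whereas 66.3% of all protein-coding genes had one. Levels per kb of peak ran from the 16.0th to the 89.9th percentile among the 13065 promoters with a peak, with a median at the 54.5th percentile. The genes therefore spread over the range of active promoters, with 2 in the upper quartile and 2 in the lower.

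Of the DNA-binding subunits, NFKB1, which encodes the precursor of a subunit of the classical dimer, carried the highest level. Its promoter peak of 5091 bp (chr4:102499934-102505024) had a mean of 364.6 normalized counts per kb, at the 89.9th percentile. REL, which encodes the subunit c-Rel best known from lymphocytes, followed with 328.1 per kb, at the 85.4th percentile, in a peak of 5634 bp (chr2:60880215-60885848). RELA, which encodes the activating subunit of the classical dimer, reached 204.1 per kb in a peak of 4082 bp (chr11:65660776-65664857). NFKB2 and RELB, which encode the partners of the non-canonical pathway, had 193.4 per kb in 3064 bp (chr10:102393382-102396445) and 176.3 per kb in 2066 bp (chr19:45000756-45002821). These last 3 promoters lay close to the median of all promoters, which was 185.6 per kb. NFKB1 and REL thus stood apart from the other subunit genes, and the non-canonical pair stood next to each other.

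Among the regulators, NFKBIA, which encodes the inhibitor IκBα, had 249.2 counts per kb at its promoter, at the 70.4th percentile (3806 bp, chr14:35402121-35405926). NFKBIZ, which encodes a nuclear IκB protein that acts as a coactivator, was next to it with 239.7 per kb, at the 67.9th percentile (4156 bp, chr3:101848091-101852246). The peak at the upstream start site of NFKBIZ had less, 112.3 per kb in 1444 bp. NFKBIE, which encodes the inhibitor IκBε, had 140.1 per kb, at the 34.0th percentile (1969 bp, chr6:44264413-44266381). TNFAIP3, which encodes a ubiquitin-editing enzyme that shuts the pathway off, had 113.7 per kb, at the 24.1st percentile (2191 bp, chr6:137866143-137868333). BCL3, which encodes another nuclear IκB protein, was the lowest with 88.7 per kb, at the 16.0th percentile (2367 bp, chr19:44747179-44749545). NFKBIA and TNFAIP3, both feedback inhibitors with matches close to the start, thus lay on opposite sides of the median of all promoters. With no value per library, it could not be tested which neighbours in this order differ.

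**Figure D2:**
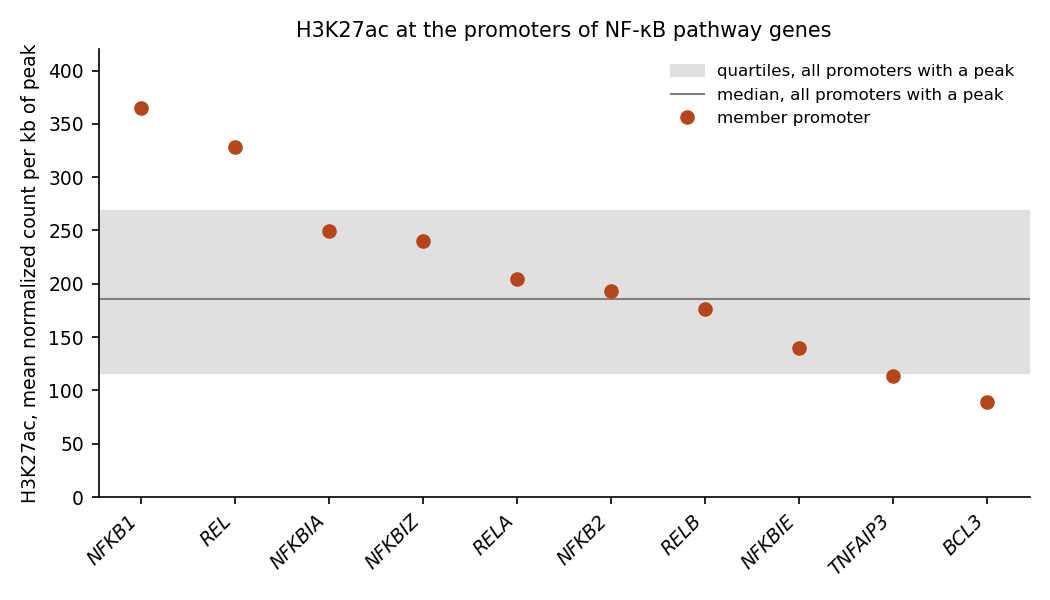
H3K27ac at the strongest promoter peak of each gene, as the authors' mean normalized count over all 6 libraries per kb of peak (y axis), with genes ordered by level (x axis). The grey band spans the quartiles (116.0 to 268.2) and the line the median (185.6) of all 13065 promoters with a peak, and NFKB1 and REL lie above the band.

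Away from promoters the genes had 6 H3K27ac peaks in gene bodies and 7 in surrounding sequence. The peak with the highest mean per kb among these was at the 3′ end of RELA (chr11:65651255-65655359), with 1143 normalized counts over 4105 bp, or 278.5 per kb, more per kb than at the RELA promoter. The widest peak, of 15156 bp, began in the last part of RELB (chr19:45035774-45050929) and covered the start of the neighbouring gene CLASRP, so its 1842 counts cannot be assigned to RELB alone. NFKBIE likewise shared a peak of 5866 bp (chr6:44252755-44258620) with the start site of SLC35B2 and with exon sequence of HSP90AB1. That peak was counted among the promoter peaks, as it lay within 2 kb of a start site of NFKBIE. Its centre was 9.9 kb downstream of the canonical start. NFKBIA had no H3K27ac peak other than its promoter peak, although it has 112.2 kb of sequence nearest to it. TNFAIP3, with 200.4 kb, had 4 peaks around it, and 2 of these were 500 bp wide with means of 24.7 and 16.1 counts, against a median of 118.7 over all H3K27ac peaks. Of the 27 peaks, 21 lay above the median of 66.6 counts per kb over all peaks, and 14 of the 27 were promoter peaks.

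Enhancers, defined by the authors as overlapping H3K4me1 and H3K27ac outside promoters, were assigned to 5 of the 10 genes (NFKB1, REL, RELA, NFKBIZ and TNFAIP3), and 31.3% of all genes were nearest to one of either list. Of the 5 enhancers listed for non-senescent cells, 1 overlapped none listed for senescent cells, where 29.4% of all non-senescent enhancers did so. Of the 7 enhancers listed for senescent cells, 3 overlapped none listed for non-senescent cells, where 20.5% of all senescent enhancers did so. The latter count, 3 of 7, became 1 of 4 with a limit of 50 kb in place of 100 kb, and 1 of 3 when all gene types, not protein-coding genes alone, competed for the nearest start site. The shares of 20% (exact 95% binomial interval 0.505% to 71.6%) and 42.9% (9.90% to 81.6%) had intervals that held these background values. The intervals cover counting error only, and enhancers of 1 gene are not independent.

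The enhancer listed for non-senescent cells alone lay in an intron of NFKB1, 53.7 kb downstream of its start site (chr4:102553420-102556639, 3220 bp). The H3K27ac peak there had a mean of 303.7 counts, at the 69.5th percentile of all peaks. It held 1 match to the NF-κB consensus, 53.4 kb from the start site, shown with the match in capitals because this is the region of these genes that was listed in the non-senescent state alone.

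NFKB1 intron, chr4:102554704-102554733, minus strand: accaccagcaGGGAGACTCCgcaagacagc

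TNFAIP3 had 2 of the 3 enhancers listed for senescent cells alone, and it had none in the non-senescent list. One lay 55.7 kb upstream of its start site (chr6:137811037-137812003, 967 bp, peak mean 71.9 counts) and the other 83.1 kb downstream (chr6:137949675-137951032, 1358 bp, peak mean 132.9 counts). Both were intergenic, and neither was assigned to TNFAIP3 under a limit of 50 kb or when all gene types competed. The downstream enhancer held a match on both strands, 83.7 kb from the start site, which is given for comparison with those at the TNFAIP3 promoter.

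TNFAIP3 downstream enhancer, chr6:137950936-137950965, plus strand: aaaatgtcttGGGGACTCCCCacacgctaa

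The third lay in the distal part of REL, overlapping an exon, 44.5 kb from its start site (chr2:60925266-60926980, 1715 bp, peak mean 145.9 counts), with no match. REL had no enhancer in the non-senescent list. The peak means at these 3 enhancers were at the 39.0th to 54.4th percentile of all H3K27ac peaks, below that of the NFKB1 intron. They are means over both states, so neither the level in each state nor its spread between libraries could be read from them.

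The other 4 enhancers of each list overlapped each other. At the 3′ end of RELA the listed width was 3318 bp in non-senescent and 3980 bp in senescent cells. An enhancer centred 34.0 kb (non-senescent list) upstream of the canonical start of NFKBIZ, in the neighbouring gene NXPE3, was 3245 bp wide in the non-senescent list and 1888 bp in the senescent list. A second enhancer of NFKBIZ, around an internal start site of the gene, was 3251 and 3402 bp wide. The enhancer centred 70.3 kb (non-senescent list) upstream of NFKB1, in an intron of SLC39A8, was 1324 and 1182 bp wide. No enhancer of either list was assigned to NFKB2, RELB, NFKBIA, NFKBIE or BCL3. Consensus matches were present in 2 of the 5 non-senescent and 2 of the 7 senescent enhancers, and in 35.3% and 37.0% of all enhancers of the lists. The members' enhancers held 0.279 and 0.276 matches per kb, against 0.209 and 0.206 in all enhancers. Apart from the matches shown above in the NFKB1 intron and downstream of TNFAIP3, these all lay in the shared enhancer at the 3′ end of RELA. The windows around the members' start sites held 1.35 per kb, against 0.446 in all such windows.

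**Figure D3:**
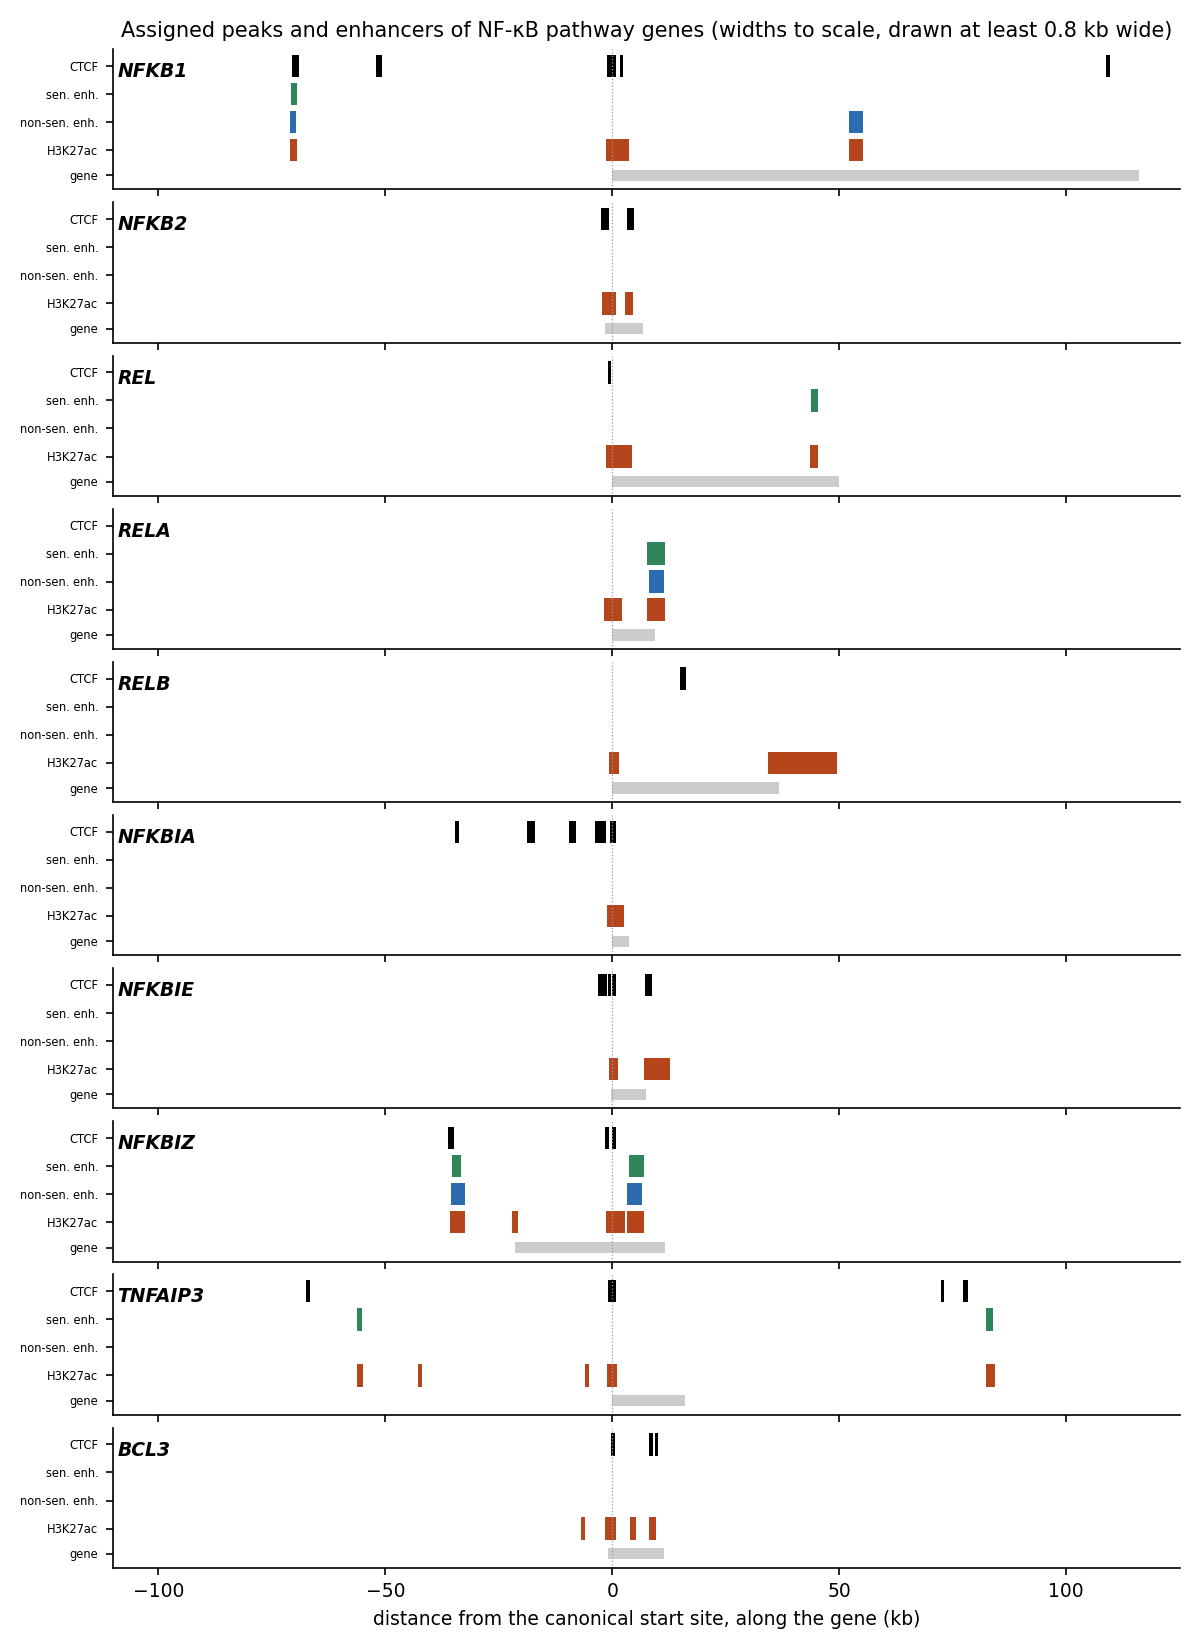
Regions assigned to each of the 10 genes by distance in kb from the canonical start site along the gene (x axis), with 1 track each for the gene, H3K27ac peaks, the 2 enhancer lists and CTCF peaks. Regions of the senescent list without a partner in the non-senescent list are seen at REL and on both sides of TNFAIP3, and the reverse in the intron of NFKB1.

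CTCF peaks lay at the promoters of 8 of the 10 genes, against 47.6% of all genes. At REL, NFKBIZ and BCL3 these promoter peaks were all low, with 20.1 counts, 8.06 and 39.6 counts, and 9.39 counts. The share of all genes was not computed without such low peaks, nor among genes with promoter H3K27ac. RELA had none assigned at all, and RELB had 1, in its body. The 28 peaks had a median of 90.4 normalized counts, where the median of all CTCF peaks was 58.6, and 18 of them lay above the latter. Levels varied widely within a gene, from 9.99 to 269.8 counts among the 5 peaks of NFKB1 and from 5.04 to 422.2 among the 4 peaks of TNFAIP3.

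The CTCF peak with the highest level was in the body of NFKB2, with 449.2 counts (chr10:102398952-102400448, 97.0th percentile). The TNFAIP3 promoter peak was next, with 422.2 counts (chr6:137866388-137868007, 96.4th percentile), and the peak at the upstream start site of NFKB2 followed with 389.9 (chr10:102393236-102394942). The TNFAIP3 peak overlapped a promoter H3K27ac peak that was in the lower quartile of promoters, so the order of the marks differed at this gene. At NFKBIE the highest CTCF peak (372.5 counts, chr6:44256915-44258367) was again at the SLC35B2 start site, and a further peak of 340.1 counts lay 2.2 kb upstream of NFKBIE. NFKBIA had 5 peaks between its promoter and 34.2 kb upstream, the highest with 325.6 counts (chr14:35421695-35423619, 17.9 kb upstream). In RELB the single peak, within an intron (chr19:45016305-45017724), had 206.2 counts. NFKBIZ had its highest peak, of 120.6 counts, overlapping the NXPE3 enhancer in both lists (chr3:101813249-101814627). REL had 1 peak, of 20.1 counts (chr2:60880687-60881210), and the 3 peaks of BCL3 held between 9.39 and 14.3 counts.

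A core CTCF motif, CCANNAGNNGGC on either strand, was found in 6 of the 28 peaks, or 21.4% (exact 95% binomial interval 8.30% to 41.0%), and in 23.6% of all CTCF peaks. The study's methods describe a filter of CTCF peaks for a motif, but it is not clear whether the table holds peaks from before or after it, so these shares and the counts of CTCF peaks may include peaks that the filter would remove. With 1 mismatch allowed, 78.6% of the members' peaks and 76.1% of all peaks held it. All 6 exact cores, at NFKB1, NFKBIA, NFKBIE and NFKBIZ, lay on the strand of the gene to which the peak was assigned. The share on that strand over all CTCF peaks was not computed, so this describes these 6 cores alone. Shown are the cores of the strongest such peak of each gene, since the direction of the motif is known to matter for looping, with the core in capitals.

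NFKB1, 51.4 kb upstream, chr4:102449936-102449965, plus strand: taaaagatgCCAGGAGGTGGCagcatttgt
NFKBIA, 17.8 kb upstream, chr14:35422559-35422588, minus strand: cactaagtcCCAGTAGGTGGCggtaacacc
NFKBIE, 7.8 kb downstream, chr6:44257764-44257793, minus strand: atgtcctgtCCACAAGATGGCaatggtcac
NFKBIZ, 35.6 kb upstream, chr3:101813899-101813928, plus strand: cccagttgaCCATAAGGGGGCaacataggt

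The 2 peaks of NFKB2 and the promoter peak of TNFAIP3, which had the highest CTCF levels of these genes, held no exact core but held one with 1 mismatch. Looping was not measured.

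**Figure D4:**
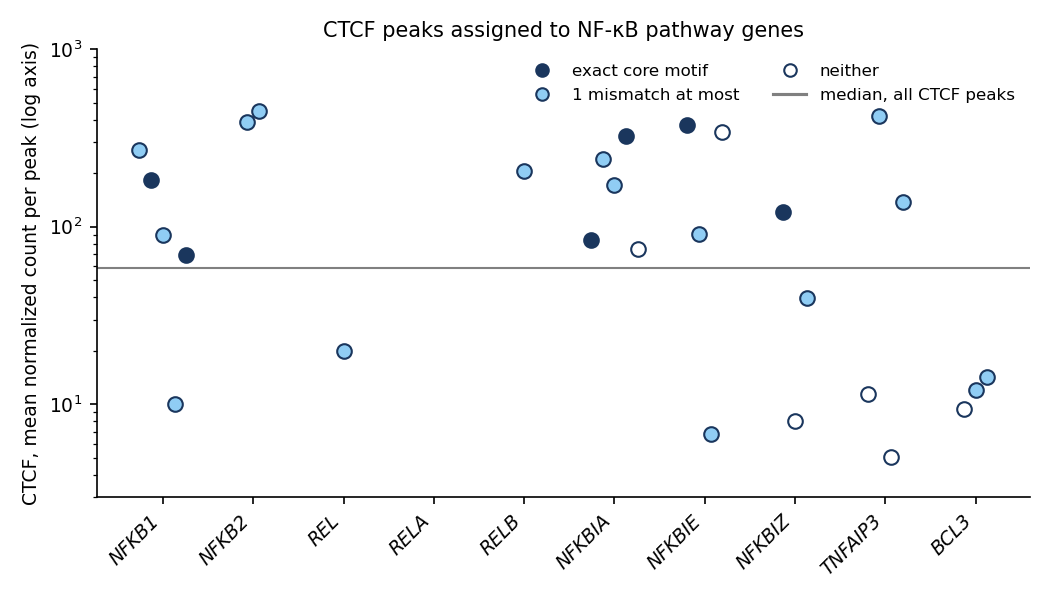
CTCF peaks of each gene as the authors' mean normalized count over all 6 libraries on a log axis (y axis), ordered within a gene (x axis) by position on the chromosome. Filled, pale and open points mark an exact core motif, a core with 1 mismatch and neither, and the line marks the median of all CTCF peaks (58.6), below which all 3 peaks of BCL3 lie.

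Rb, which represses cell-cycle genes when it is active, was listed at 2435 regions called in senescent over non-senescent libraries, and 0 of them were assigned to these genes. By the same rule 3.76% of all protein-coding genes had such a region, so a count of 0 among 10 genes does not set them apart. The nearest to a start site was 65.2 kb from NFKB2, and for the other 9 genes the distance ran from 163.1 kb at RELA to 2933.4 kb at REL.

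Other genes of the pathway were set beside these 10, with 66.3% of all protein-coding genes having a promoter H3K27ac peak. Of 9 genes for the kinases that activate NF-κB and their regulatory partners, 9 had a promoter H3K27ac peak, with a median at the 47.4th percentile, from IKBKG (28.3rd), the scaffold of the kinase complex, to TAB2 (90.8th), an adaptor of the upstream kinase. Of 13 receptors, adaptors and receptor-proximal kinases, 10 had one, from TRADD (7.16th percentile), an adaptor of tumor necrosis factor receptors, to RIPK1 (81.3rd), a kinase that acts with it. The receptor genes TNFRSF1A, TNFRSF1B and CD40 had none. Of 7 further genes grouped as inhibitors, 7 had a peak, from TNIP2 (10.5th percentile) to BIRC2 (95.5th). BIRC2 encodes a ubiquitin ligase that does not act as an inhibitor alone, and the next highest of the group was TNIP1 (83.4th).

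Of 17 known target genes outside the members, 7 had a promoter peak, where 66.3% of all protein-coding genes had one. Peaks were not listed for the adhesion molecules ICAM1 and VCAM1, the chemokines CXCL8, CXCL10, CCL2 and CCL20, the cytokines IL6 and IL1B, or NOS2 and TNFAIP2. The chemokines CXCL1 and CXCL2 had a peak, at the 12.3rd and 13.5th percentile. Those with a peak had a median at the 13.5th percentile, with BIRC3, an apoptosis inhibitor, lowest (8.40th) and SOD2, a mitochondrial antioxidant enzyme, highest (96.3rd). The median of the 10 members was at the 54.5th percentile. Over the 46 genes of these 4 lists, 7 of 29 non-senescent enhancers and 1 of 22 senescent enhancers were listed in 1 state alone, the latter nearest to TNFAIP2, while among the members these counts were 1 of 5 and 3 of 7, the latter 1 of 4 with a limit of 50 kb. Over all enhancers the shares were 29.4% and 20.5%. The difference was not tested, since each state has a single list.

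**Figure D5:**
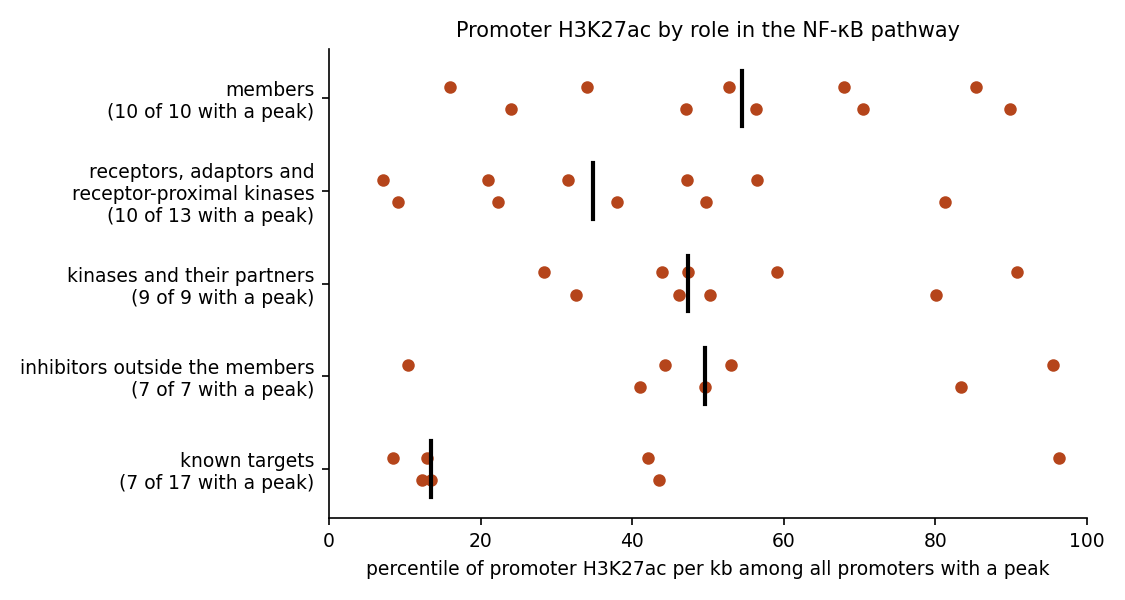
Promoter H3K27ac per kb, as a percentile among all promoters with a peak (x axis), for the 10 members and 4 lists of other pathway genes (y axis). Points are genes with a promoter peak and bars are medians, and most known targets with a peak lie below the 50th percentile.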

How the data were processed

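ChIP-seq libraries of H3K27ac and CTCF (3 and 3 each), H3K4me1 and Rb (2 and 2 each), with an input for each, were grouped by state from the labels. By the study's account, the authors used Trim Galore for trimming, Bowtie2 for alignment to hg38, HOMER for histone-mark peaks, MACS2 for CTCF and Rb regions, and DESeq2 on read counts in peaks. Versions and the way replicates were combined are not given in the sources used here. The stated filter of CTCF peaks for a motif was not repeated, and the CTCF table may hold peaks from before it. The deposited signal is the authors' mean, over the 6 libraries of a mark, of read counts scaled by DESeq2 size factors, which hide a genome-wide change of a mark. The depth of each library is not given by the files, and no interval of a level was computed. The 2 tables also hold the authors' log2 fold changes, standard errors, test statistics, p-values and adjusted p-values between the states, and these were not used. With no values per library, no test was run. The deposited lists hold positions alone.

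Regions were overlapped by at least 1 bp with GENCODE 44 genes. Positions are hg38, 1-based, with files read as 0-based. The 24 chromosome names were those of hg38, 0 regions passed a chromosome end, and 27305 RefSeq promoter sequences were identical to it. For each promoter the peak with the most counts per kb was used, and a percentile is the percent of all features lower. Distances are to a region's centre from the start of the Ensembl canonical transcript. Motif and interval functions were tested on simulated data. Python 3.11.15, SciPy 1.17.1 and matplotlib 3.10.9 were used. All 10 members are named, each with its strongest promoter and CTCF peaks and its enhancers listed in 1 state alone. In the other pathway lists the highest and lowest gene and those without a promoter peak are named, with TNIP1, CXCL1 and CXCL2 besides. The members and lists were chosen with earlier results of these data known. The sequence of 1 further promoter match is not reported here.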

Additional observations from a re-analysis of the deposited data

How the results depend on the processing

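The median percentile of H3K27ac at the promoters stayed between 53.1 and 57.7 under a 1 kb window, the canonical start site alone, the whole-peak mean and a mean over all promoter peaks. The 27 H3K27ac peaks became 20 to 25 under other limits, filters and rules. Requiring a mean of at least 50 counts left 18 of the 28 CTCF peaks. When all gene types competed for the nearest start site, the genes had 3 non-senescent enhancers in place of 5 and 3 senescent enhancers in place of 7. A limit of 50 kb left 4 senescent enhancers, since both TNFAIP3 enhancers and that upstream of NFKB1 lie farther away, and the share listed in senescent cells alone became 25%. Allowing 1 mismatch raised the share of CTCF peaks with a core from 21.4% to 78.6%. An NF-κB match was found in 6 of 8 RefSeq windows and in 10 of 10 windows that reached 1 kb up- and downstream of the canonical start, which differ in width, in start site and in holding RELB and NFKBIE. Within 250 bp of the canonical start all 10 genes already held one, but the share of all genes was not computed for this window. The looser motif GGGNNNNNCC raised the enhancers with a match from 2 to 4 in the non-senescent and from 2 to 5 in the senescent list, and it occurred in 84.6% and 85.9% of all enhancers. Assigning each region to its nearest gene alone, chosen after seeing the data, left 25 H3K27ac peaks, 27 CTCF peaks, 5 non-senescent and 7 senescent enhancers. No paired analysis was possible because the files hold no values per library, and leaving out a replicate could not be run for the same reason.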
